A study of Mus musculus with 2 samples.

Results

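The 10 circadian clock genes *Clock*, *Per1*, *Per2*, *Per3*, *Cry1*, *Cry2*, *Nr1d1*, *Nr1d2*, *Dbp* and *Tef* were examined in the incisors of newborn wild-type and *Sox21* knockout (KO) mice. They were taken by gene name from the annotation of the array, which carries 21245 genes with a reference symbol, and every probe of each gene is described. The 10 genes had 14 probes, of which 13 were well above background on both arrays by the mark of the scanner software, and each gene had at least 1 such probe. RNA came from the incisor of a wild-type group, for which the methods name C57BL/6J mice, and of a *Sox21* KO group. The KO mice were a gifted line in which this transcription factor gene is knocked out. Their strain background is not given in the sources used here. The study also used a GFP knock-in at *Sox21* as a reporter, in mice with 1 intact copy of the gene, and credits that reporter and the KO line to the same source. The sample labels give postnatal day 0 for both groups, whereas the methods write P1. Each genotype had 1 array, so no difference has a replicate check, no test could be run, and 2 arrays in all limit the precision. The number of animals behind each RNA sample and the hour at which tissue was taken, which sets the level of many clock transcripts, are not given in the sources used here.

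The circadian clock of mammalian cells is a loop of transcription and repression that runs with a period of about a day. CLOCK pairs with BMAL1 (gene *Arntl*) and activates genes through E-box elements, among them the PER and CRY genes, whose proteins return to the nucleus and repress the pair. A further loop runs through the nuclear receptors REV-ERB alpha and beta (*Nr1d1* and *Nr1d2*), which repress *Arntl* in competition with the ROR receptors, and through the PAR bZIP factors DBP and TEF, which bind D-box elements that NFIL3 occupies as a repressor. Enamel and dentin are laid down in daily increments, and clock proteins are known in ameloblasts and odontoblasts. *Per1* is also an acute response gene, since glucocorticoid hormone and cAMP signalling each induce it outside the loop.

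The sequences below place the clock elements beside the genes whose values follow. E-box (CACGTG), D-box (TTATGTAA or TTACGTAA), ROR/REV-ERB core (TAGGTCA or TGGGTCA) and cAMP response element (TGACGTCA) were looked for on both strands from 250 bases before to 50 bases after each start site in RefSeq, build GRCm38.p6. The table held 13 promoters for 9 of the 10 genes, the exception being *Per2*. An E-box stood in a promoter of 3 of these 9 genes, *Per1*, *Cry1* and *Tef*. Over all 27025 genes, 8.09% had an E-box in a promoter, and 7.15% of all 32851 promoters held one. A D-box stood in the *Per3* promoter, at 2 places, and in 1.06% of all promoters. The ROR/REV-ERB core and the cAMP response element, which 6.45% and 1.79% of all promoters hold, were in 0 of the 13. No match overlapped another, and a match is only a run of letters. *Per1* and *Per3* are shown with all 250 bases before their start sites, because these family members had the highest and the lowest log2 ratio of the 10 genes. *Cry1* and *Tef* are shown with 30 bases on each side of the E-box. Capitals mark the E-boxes and D-boxes, and each sequence runs 5′ to 3′ toward its start site.
Per1, chr11:69098699-69098948, plus strand: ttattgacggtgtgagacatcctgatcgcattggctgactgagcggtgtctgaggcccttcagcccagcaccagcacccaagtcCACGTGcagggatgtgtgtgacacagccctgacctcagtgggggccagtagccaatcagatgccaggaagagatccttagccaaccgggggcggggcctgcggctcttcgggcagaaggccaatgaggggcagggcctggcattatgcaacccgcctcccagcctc
Per3, chr4:151044666-151044915, minus strand: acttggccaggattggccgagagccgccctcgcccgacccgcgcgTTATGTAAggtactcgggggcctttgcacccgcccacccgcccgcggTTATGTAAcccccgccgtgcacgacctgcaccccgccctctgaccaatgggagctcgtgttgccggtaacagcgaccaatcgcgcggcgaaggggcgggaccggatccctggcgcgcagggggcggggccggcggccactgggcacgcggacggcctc
Cry1, chr10:85185079-85185144, minus strand: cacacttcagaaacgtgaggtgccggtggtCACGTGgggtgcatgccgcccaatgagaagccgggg
Tef, upstream start site, chr15:81802516-81802581, plus strand: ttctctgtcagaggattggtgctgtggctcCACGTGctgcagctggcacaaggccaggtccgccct
Tef, downstream start site, chr15:81811246-81811311, plus strand: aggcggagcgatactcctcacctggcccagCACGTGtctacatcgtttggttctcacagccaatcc

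Counted from the start site, the E-box lay at -166 in the *Per1* promoter, at -60 in that of *Cry1*, and at -127 and -138 before the start sites of *Tef*. The D-boxes of *Per3* began at -205 and -158.

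Background was removed by the scanner software, which wrote a processed signal for each spot. Each signal was divided here by the 75th percentile of its array, 268 for wild-type and 276 for *Sox21* KO, and the log2 ratio is *Sox21* KO minus wild-type, so that a value above 0 is higher in the KO. The scanner software also gives each signal an error, printed after ± and carried into the log2 ratio. Between repeat spots of the same probe within these arrays, the SD of the log2 ratio was 0.08 at the median of 261 probes well above background. The targeted gene *Sox21* gave 1362 ± 136 and 659 ± 66.1 at its brighter probe and 286 ± 29.0 and 103 ± 11.3 at the other, wild-type first. It was thus lower on the KO array at both, at 0.47 and 0.35 of wild-type after normalization. Both probes were still well above background on the KO array. The part of the gene that the KO line lacks is not given in the sources used here, and the source of the remaining signal was not tested. Of 13796 genes measured on both arrays, 0.739% were at least 2-fold higher and 0.667% at least 2-fold lower in the KO, or 102 and 92 genes. Under a median shift the counts were 135 and 63. The enamel markers *Amelx*, *Ambn* and *Enam* and the odontoblast marker *Dspp* were well above background on both arrays, as in tooth tissue that forms enamel and dentin.

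*Per1* was the clock gene that differed most between the arrays, being 1.62-fold higher in the KO, and the other 9 genes stayed within 1.5-fold. None of the 10 genes (0 genes) was 2-fold apart. At 1.5-fold, 1 of the 10 genes was higher and 0 were lower, beside 3.2% higher and 2.99% lower among all measured genes. With 10 genes, 1 gene past this line is no result about the group. Taking each gene at its brightest probe, 7 were higher and 3 lower, with a median log2 ratio of 0.15 against 0.01 over all measured genes. *Nr1d2*, among the lower genes, had a value of 0.03 under a median shift, so that the split was then 8 to 2. The median size of the log2 ratio without its sign was 0.33 for the 10 genes and 0.15 over all measured genes. These medians are not matched for signal, and several of the 10 genes were dim. Under a normal-exponential background correction the log2 ratios of the dim *Per2*, *Per3* and *Cry1* were 0.09, -0.15 and 0.10, beside 0.68 for *Per1*. Of the 10 genes, 1 was nearer to 0 than the SD between repeat spots, namely *Nr1d2*. The log2 ratio was more than 2 times its own error for 1 of the 10 genes, *Per1*, on the higher side and for 0 on the lower side, whereas 5.55% and 5.29% of all measured genes were past this line.

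**Figure D1:**
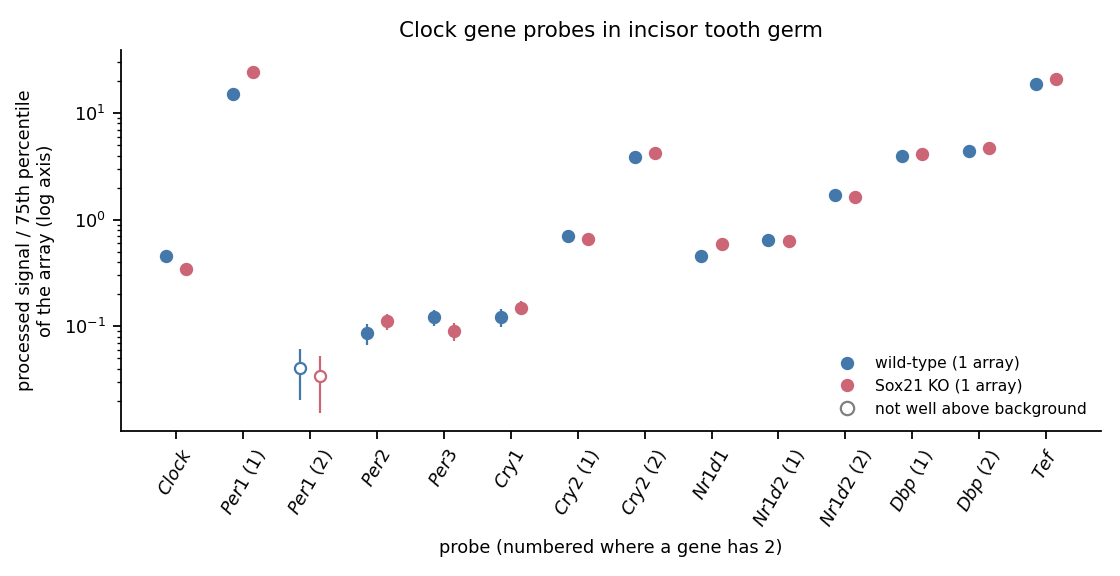
Normalized signal (processed signal divided by the array's own 75th percentile, log axis) of the 14 clock gene probes in wild-type (blue) and *Sox21* KO (red), with error bars from the scanner software and open circles where a signal was not well above background. The error bars of the pair do not overlap for *Per1*, *Clock* and *Nr1d1*, and the points lie farthest apart for *Per1*, with normalized signals of 15.1 for wild-type and 24.4 for *Sox21* KO.

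The PER proteins are the negative limb of the loop together with the CRY proteins. The main *Per1* probe (mm9 chr11:68923364-68923423, plus strand) gave a processed signal of 4028 ± 403 for wild-type, which stood at 6728 ± 673 for *Sox21* KO. Its log2 ratio was 0.70 ± 0.20, which is 3.42 times the error, and 2.001% of all measured genes had a higher ratio. Among the 1379 genes nearest to it in mean signal, the 5th to 95th percentile of the log2 ratio ran from -0.41 to 0.33. *Per1* was the only 1 of the 10 clock genes outside the range of its own signal class, a range that leaves out about 5% of genes on each side. The other *Per1* probe lies in the gene upstream of the first (mm9 chr11:68919895-68919954) and was designed on another transcript. It read 11.0 ± 5.55 and 9.40 ± 5.18, below the mark of well above background for both genotypes, and so gives no further value for *Per1*.

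*Per2* and *Per3* were dim on both arrays. The *Per2* probe (mm9 chr1:93313046-93313105) read 22.97 ± 5.02 in wild-type and 30.7 ± 5.08 in *Sox21* KO. Its log2 ratio of 0.38 ± 0.40 was smaller than its error. The *Per3* probe (mm9 chr4:150379256-150379315) read 32.7 ± 5.78 and 24.9 ± 4.93, a log2 ratio of -0.43 ± 0.38. These signals lie close to the lowest ones marked well above background, 21.3 for wild-type and 19.5 for the KO. When background was instead removed with a normal-exponential model, which damps dim spots, the log2 ratio was 0.09 for *Per2* and -0.15 for *Per3*, against 0.68 for *Per1*. The values of the PER family thus went in both directions, and *Per1* was the member whose value was larger than its error by more than 2 times.

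The cryptochromes are the partners of PER in repression. The *Cry1* probe (mm9 chr10:84594731-84594790) was dim as well, with 32.7 ± 6.16 in wild-type and 41.3 ± 6.20 in the KO, a log2 ratio of 0.29 ± 0.35. *Cry2* has 2 probes. The brighter one (mm9 chr2:92243807-92243866) read 1043 ± 104 and 1168 ± 117, a log2 ratio of 0.12 ± 0.20. The other (mm9 chr2:92251417-92251476), designed on a separate *Cry2* transcript, read 188 ± 19.4 and 182 ± 18.6, a log2 ratio of -0.09 ± 0.21. For both cryptochromes the difference between the arrays was within the scanner error at each probe, and the probes of *Cry2* lay on opposite sides of 0, except under a median shift, where the dimmer one was at 0.0037.

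*Clock*, the activator among the 10 genes, was lower in *Sox21* KO tooth germ. Its probe (mm9 chr5:76641377-76641436) read 123 ± 13.7 and 95.9 ± 11.0, a log2 ratio of -0.40 ± 0.23. This is 1.73 times the error and a signal 1.32-fold lower in the KO, and 6.76% of all measured genes had a lower ratio. Within its signal class the 5th percentile was at -0.51, below the value of *Clock*. Under the normal-exponential correction the log2 ratio of *Clock* was -0.24.

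The REV-ERB receptors, which repress *Arntl*, had different values. *Nr1d1* read 122 ± 13.5 in wild-type and 163 ± 17.1 in *Sox21* KO, a log2 ratio of 0.38 ± 0.22, which is 1.71 times the error. Its 60-base probe is shown because it is the only 1 of the 14 that spans more of the genome than its own length, 503 bases (mm9 chr11:98630526-98631028, minus strand), and so reads spliced RNA across an intron.
Nr1d1 probe: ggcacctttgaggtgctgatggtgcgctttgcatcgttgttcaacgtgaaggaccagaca
*Nr1d2* has 2 probes near each other on chromosome 14, 99.6 Mb from *Sox21* on the same chromosome. The brighter one (mm9 chr14:19036568-19036627) read 459 ± 46.3 and 452 ± 45.5, and the other (mm9 chr14:19037253-19037312) read 171 ± 17.9 and 176 ± 18.3. Their log2 ratios were -0.06 ± 0.21 and -0.0042 ± 0.21, and 0.03 and 0.09 under a median shift. Whether *Nr1d1* and *Nr1d2* responded differently could not be tested with 1 array per genotype.

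The PAR bZIP factors carry the output of the clock to D-box genes, and their probes were bright. The *Dbp* probes, at mm9 chr7:52965322-52965381 and chr7:52965461-52965520, read 1173 ± 117 and 1292 ± 129 at the brighter and 1066 ± 106.7 and 1136 ± 114 at the other. Their log2 ratios were 0.10 ± 0.20 and 0.05 ± 0.20, so that both probes of *Dbp* gave nearly the same small value. The *Tef* probe (mm9 chr15:81657221-81657280) read 4978 ± 498 in wild-type and 5809 ± 581 in *Sox21* KO, a log2 ratio of 0.18 ± 0.20. The scanner error of the ratio was as small for *Tef* as for *Per1*, and the value of *Tef* lay within it.

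**Figure D2:**
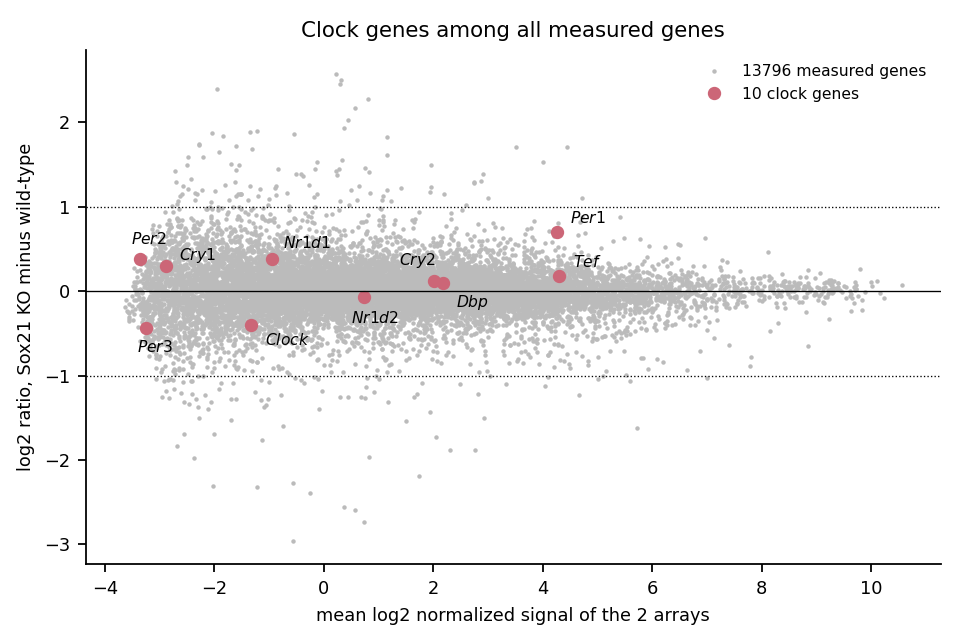
Log2 ratio (*Sox21* KO minus wild-type) against the mean log2 normalized signal of the 2 arrays for 13796 measured genes (grey) and the 10 clock genes (red, brightest probe each), with dotted lines at 2-fold. The cloud is wider at low signal, where *Per2*, *Per3* and *Cry1* lie inside it, and *Per1* at 0.70 lies above the bulk of genes of its signal.

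The rest of the clock network was described by 27 further genes, of which 23 could be measured in both genotypes. Among these 23, the log2 ratio was above 0 for 14 and below 0 for 9, beside 7234 and 6562 of all measured genes. The median for the 23 genes was 0.05, and it was between 0.03 and 0.15 under the alternatives. At least 1.5-fold higher were 4 genes, and 0 were 1.5-fold lower, beside 3.2% and 2.99% of all measured genes. Among them were *Nfil3*, *Usp2* and *Tsc22d3*. None of the 23 (0 genes) was 2-fold apart.

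The partners of CLOCK did not stand out. *Arntl*, which encodes BMAL1, read 264 ± 26.8 in wild-type and 273 ± 27.6 in *Sox21* KO, a log2 ratio of 0.0088 ± 0.21. Its paralog *Arntl2* had a log2 ratio of -0.20 ± 0.22 at the only 1 of its 3 probes that was well above background. The CLOCK paralog *Npas2* stayed near background in both genotypes, at 7.69 and 8.14. Of the ROR receptors, which activate *Arntl*, *Rora* had a log2 ratio of -0.13 ± 0.20 and *Rorb* of -0.42 ± 0.28.

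*Nfil3*, which encodes the repressor that competes with DBP and TEF at D-boxes, read 639 ± 64.1 in wild-type and 1102 ± 110 in *Sox21* KO. It was 1.68-fold higher, with a log2 ratio of 0.74 ± 0.20, and its signal class reached 0.38 at the 95th percentile. *Hlf*, the third PAR bZIP factor, had a log2 ratio of 0.22 ± 0.21. *Nfil3* was thus the member of this D-box group, which holds *Dbp*, *Tef*, *Hlf* and *Nfil3*, whose value exceeded 2 times its error. Among further repressors of CLOCK and BMAL1, *Bhlhe40* had a log2 ratio of 0.32 ± 0.21. *Bhlhe41* and *Ciart* were not well above background on either array.

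The kinases and ubiquitin ligases that set the life span of PER and CRY proteins had small values among the genes named here, apart from *Usp2*. The log2 ratios of the kinase genes *Csnk1d*, *Csnk1e*, *Csnk1a1* and *Gsk3b* lay between -0.19 and 0.14 at their brightest probes. *Fbxl21*, which encodes a ligase of CRY, was not well above background. *Usp2*, a rhythmic deubiquitinase of PER and CRY, read 211 ± 21.6 and 333 ± 33.5, which is 1.53-fold higher at a log2 ratio of 0.61 ± 0.21. *Timeless* and *Tipin*, of the replication fork, had -0.12 and 0.03. Of 5 rhythmic output genes 4 were higher, beside 7234 of all 13796 measured genes, and the lower one was *Noct*, at -0.13 ± 0.20. *Wee1*, a mitotic kinase under E-box control, had a log2 ratio of 0.52 ± 0.21. *Tsc22d3* had the highest log2 ratio of the 23 genes, at 0.81 ± 0.20. Outside the range of their signal classes were 4 of the 23 genes, all on the higher side, namely *Nfil3*, *Usp2*, *Wee1* and *Tsc22d3*. By its construction, such a range leaves out about 5% of the genes of a class on each side.

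**Figure D3:**
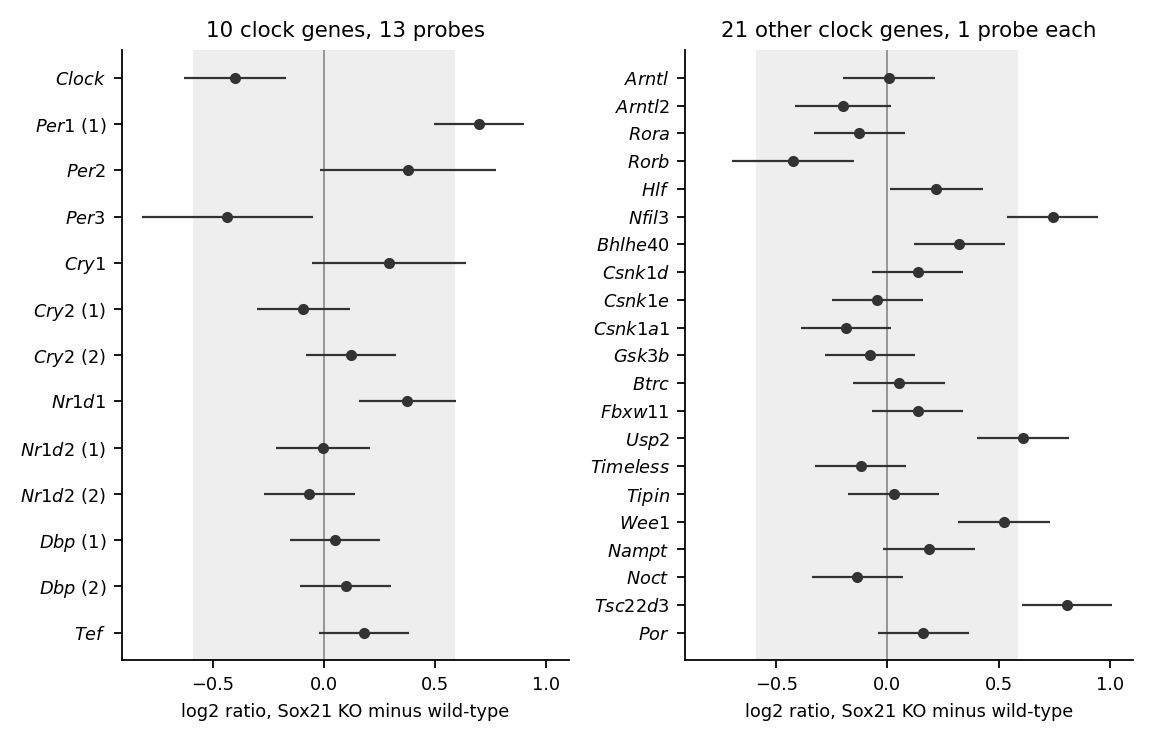
Log2 ratio (*Sox21* KO minus wild-type) with its scanner error for 13 probes of the 10 clock genes (left) and for the brightest probe of other measured clock genes (right). The grey band marks 1.5-fold, which *Per1* passed at the left and *Nfil3*, *Usp2* and *Tsc22d3* at the right, and no point passed it on the lower side.

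Because *Per1* is also an acute response gene, it was set beside genes that respond to glucocorticoid hormone and beside immediate early genes. All 4 glucocorticoid-responsive genes passed 1.5-fold on the higher side in the KO, as did 3.2% of all measured genes, and their median log2 ratio was 0.88. *Tsc22d3*, which is also on the list of rhythmic outputs and encodes the anti-inflammatory protein GILZ, read 3943 ± 394 and 7107 ± 711. *Fkbp5*, a co-chaperone of the glucocorticoid receptor, read 1113 ± 111 and 2228 ± 223, a log2 ratio of 0.96 ± 0.20. The kinase gene *Sgk1* had a log2 ratio of 0.74 ± 0.20. The transcription factor gene *Zbtb16* read 250 ± 25.5 and 590 ± 59.1 and was 2.29-fold higher, at 1.20 ± 0.21. The log2 ratio of each of these 4 genes was more than 2 times its error on the higher side, as was that of 5.55% of all measured genes. The list was chosen with earlier results of these data known.

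Of 8 immediate early genes 7 could be measured in both genotypes, and 6 of these were higher in the KO, beside 7234 of all 13796 measured genes. The median of their log2 ratios was 0.57. At least 1.5-fold higher, like 3.2% of all measured genes, were 3 of the 7, *Egr1*, *Atf3* and *Dusp1*, with log2 ratios of 0.67, 1.15 and 0.59. *Dusp1* lay just past this line at 1.502-fold and *Fos* just short of it at 1.487-fold, a log2 ratio of 0.57. *Crem* had -0.09 at its brightest probe, *Nr4a1* had 0.28 and *Fosb* 0.19. *Junb* was dim, at 19.5 ± 4.7 in wild-type, not well above background, and 39.3 ± 5.6 in the KO. After normalization its KO signal was 1.79-fold above the lowest wild-type signal marked well above background, a bound that leaves the errors out. These values stand beside that of *Per1* on the same pair of arrays, and their part in it was not tested. Genes of both lists and *Per1* come from 1 RNA sample for each genotype, so the genotype, the hour and the handling of the animals cannot be told apart.

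**Figure D4:**
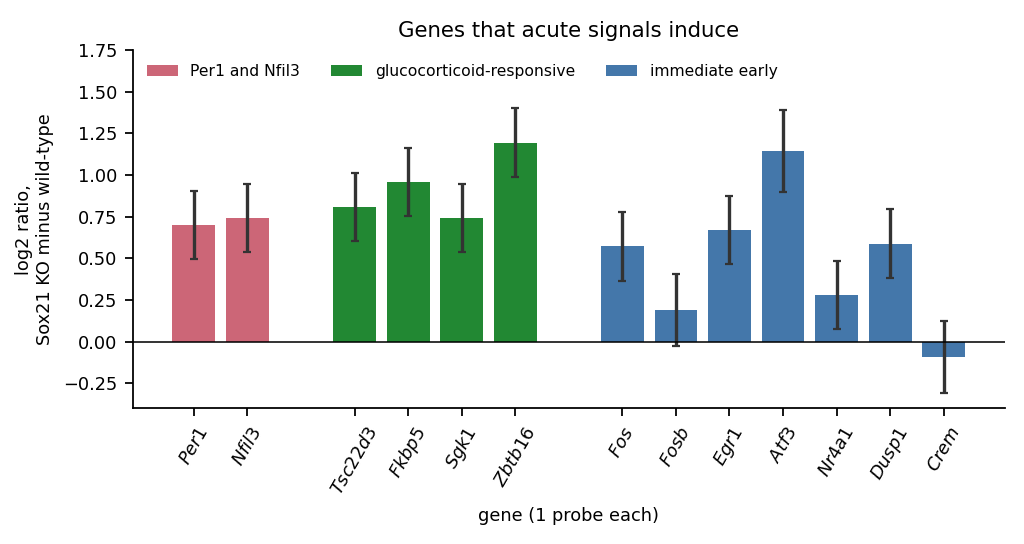
Log2 ratio (*Sox21* KO minus wild-type) with its scanner error for *Per1* and *Nfil3* (red), 4 glucocorticoid-responsive genes (green) and 7 immediate early genes (blue). The bars stand above 0 except that of *Crem*, and the 4 green bars run from 0.74 to 1.20.

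Markers of the cell types in the tissue differed between the arrays too. Of 7 ameloblast genes, which were measured in full, 5 were lower in the KO and 2 higher, with a median log2 ratio of -0.62. The median was 0.11 for 3 odontoblast genes and 0.22 for 4 genes of dental epithelium. It was -0.55 for 6 skeletal muscle genes, 0.34 for 4 bone genes, -0.18 for 3 erythroid genes, 0.07 for 3 endothelial genes and 0.33 for 3 macrophage genes. For 2 of 3 Schwann cell genes that were measured it was -0.09. All clock genes studied here are expressed in many cell types. In such bulk tissue, fewer cells of a type and less RNA per cell cannot be told apart, and the part of cell composition in the clock gene values was not tested.

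Other processing moved the dim clock genes most and left *Per1* apart from the others. Over the reported setting and 6 alternatives of scaling, background, source table and outlier spots, the log2 ratio of *Per1* ran from 0.68 to 0.79, and *Per1* alone was past 1.5-fold under each of them. The sign was kept at 10 of the 13 probes, and the other 3 were the dimmer *Cry2* probe and both *Nr1d2* probes. The ranges were widest for the dim genes, from 0.09 to 0.47 for *Per2*, from -0.45 to -0.15 for *Per3* and from 0.10 to 0.39 for *Cry1*. *Clock* ran from -0.41 to -0.24 and *Nr1d1* from 0.28 to 0.47.

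**Figure D5:**
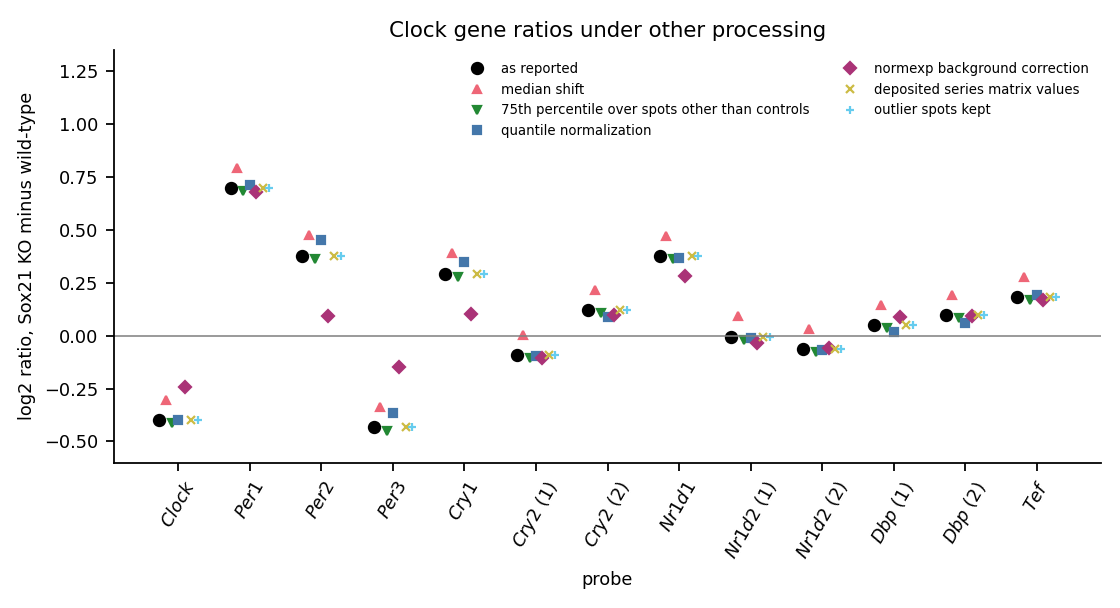
Log2 ratio (*Sox21* KO minus wild-type) of 13 clock gene probes as reported (black) and under 6 other ways of processing, 1 symbol each. *Per1* stays between 0.68 and 0.79, and the normal-exponential correction (purple diamonds) draws *Per2*, *Per3*, *Cry1* and *Clock* toward 0.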

How the data were processed

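Total RNA of incisors was labelled with 1 dye and hybridized to Agilent mouse arrays, 1 per genotype. Per spot, the authors deposited the background-corrected intensity and its error from Feature Extraction 10.7.3.1, with the raw intensity of spot and local background. They also deposited a table of ratios, equal to the processed signals after division by a constant for each array, and this table served as an alternative. The methods name a percentile shift and a filter on very low signals.

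Of 62976 spots, the controls and 267 outlier spots were left out, leaving 55679 probes. The log2 of each signal over its array's 75th percentile was averaged over the spots of a probe. The brightest probe that was well above background in both genotypes stood for its gene. Names came from RefSeq (GRCm38.p6), matched through the accession for 26298 probes, the symbol for 2044 and a former symbol for 355, with 26982 left under the name in the file. Probe coordinates are those of the files (mm9). Probes were not placed by translation, and the 1 printed was picked by its span.

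All 10 clock genes are named with every probe. Of the other clock genes, those past 1.5-fold and all activators, ROR receptors, bZIP factors and repressors are named, and *Wee1*, *Noct*, the kinases and *Fbxl21* were named after their values were seen. Some listed genes count in the totals but are not reported here by name. The 10 genes and all lists were chosen with earlier results of these data known. A signal class is the genes within 5% of ranks of mean signal to each side. A gene well above background on 1 array was given a bound, against the larger of its own signal on the other array and the lowest signal well above background there. The steps were tested on simulated data. Python 3.11.15, numpy 2.4.6, pandas 2.3.3, matplotlib 3.10.9, R 4.3.3 and limma 3.58.1 were used, the last for the normal-exponential correction with an offset of 50.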

Additional observations from a re-analysis of the deposited data

How the results depend on the processing

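The clock gene ratios were recomputed under 6 alternatives, each of which altered a single choice. The medians of the clock, glucocorticoid-responsive and immediate early lists were also recomputed without the requirement on background and with the mean over a gene's probes, and the counts under these and at 1.5-fold. Single genes outside the 10 and the cell type markers were not recomputed. The count of clock genes at least 2-fold apart was 0 under every alternative at that fold, and at 1.5-fold it became 1, *Per1*, on the higher side. Under the median shift, the median log2 ratio was 0.25 for the 10 clock genes, 0.15 for the other clock genes, 0.98 for the glucocorticoid-responsive genes and 0.67 for the immediate early genes, and the median of all measured genes moved by 0.10 as well. The normal-exponential correction gave 0.10 for the 10 clock genes, 0.05 for the other clock genes, 0.87 for the glucocorticoid-responsive genes and 0.44 for the immediate early genes. Over all measured genes, the counts at least 2-fold higher and lower were 46 and 40 under that correction, 508 and 695 without the requirement on background, and 441 and 412 at 1.5-fold. Of 78 recomputed ratios of clock gene probes, 18 moved by more than the SD between repeat spots, 13 under the median shift and 5 under the normal-exponential correction. The cause of these moves was not tested, beyond that a shift moves every gene alike and the offset damps dim spots. Dim signals limit *Per2*, *Per3* and *Cry1*. No paired analysis was possible because each genotype has 1 array.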
